A study of Mus musculus with 4 samples.

Results

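The stroma of mouse lymph nodes was examined for 9 genes that encode cytokines acting on lymphocytes and myeloid cells, here called survival factors: Il7, Il15, Flt3l, Tnfsf13b, Tnfsf11, Csf1, Il34, Kitl and Il33. These 9 genes were chosen by name from the 32285 genes listed in the count matrices, and all 9 were detected in every library. The source was single-cell RNA-seq of live CD45- CD31- cells, which leaves out leukocytes and endothelium. Female C57BL/6 mice aged 12 weeks gave their inguinal, axillary and brachial nodes, which were digested with enzymes and depleted of CD45+ cells before the sort. The 4 libraries fall into 2 batches. Since the mice of a group were pooled before capture, the replicate is the library, not the mouse or the cell.

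Control 1 came from 6 Ccl19-Cre x R26R-EYFP mice, and Notch2 cKO 1 from 6 mice, not their littermates, that had Ccl19-Cre and R26R-EYFP on a Notch2 fl/fl background. Control 2 came from 3 Notch2 fl/fl mice, and Notch2 cKO 2 from 3 of their Ccl19-Cre x Notch2 fl/fl littermates. The 2 controls therefore carry different alleles: control 1 has the Cre and the EYFP reporter but wild-type Notch2, and control 2 has the floxed allele, with no Cre in its genotype label (the title of that library names the Cre line with wild type, so the labels do not fully match). The Cre is driven by the Ccl19 promoter, so recombination is directed to Ccl19-expressing cells and their descendants and not to all stroma. The exons that Cre removes from Notch2 were not given in the sources used here, and a 3′ count does not test a deletion elsewhere in the gene. In T-zone reticular-like cells, Notch2 was at 42.3 and 56.4 counts per 1e6 UMIs (CPM) in the controls and at 14.5 and 36.8 in the Notch2 cKO libraries (log2 fold change -1.12, edgeR adjusted p = 0.00108).

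Fibroblastic reticular cells build the scaffold of the lymph node and feed the immune cells that move along it. IL-7 keeps naive T cells alive and BAFF, the product of Tnfsf13b, keeps B cells alive. FLT3 ligand maintains dendritic cells, and CSF1 and IL-34 are alternative ligands of the CSF1 receptor on macrophages. RANKL, the product of Tnfsf11, marks the marginal reticular cells under the subcapsular sinus and is bound by the decoy receptor osteoprotegerin, the product of Tnfrsf11b. Notch2 is a surface receptor whose cleaved intracellular part acts in the nucleus with the DNA-binding protein RBPJ.

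The members lie at separate loci (mm10, GENCODE M21). Il7 spans chr3:7569994-7613760 on the minus strand, Tnfsf11 chr14:78277445-78308043 on the minus strand and Il34 chr8:110741829-110805924 on the minus strand. Il15 (chr8:82331632-82403222) and Tnfsf13b (chr8:10006467-10039072) share a chromosome with Il34. Flt3l lies at chr7:45129788-45136432, Csf1 at chr3:107741048-107760469, Kitl at chr10:100015630-100100416 and Il33 at chr19:29925114-29960718. Flt3l overlaps a predicted gene on its own strand, and Il7, Il34 and Tnfsf13b overlap predicted genes on the opposite strand. How the deposited counts treated overlaps was not given in the sources used here.

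RefSeq promoters (GRCm38.p6) were found for 6 of the 9 members; Il7, Il15 and Il34 had no entry. The 250 bases before each start were searched on both strands for GAAA, any 2 bases and GAAA, a form of the interferon-stimulated response element present in 2.98% of 32851 promoters, for GGG, any 3 bases and TTCC, a form of the NF-kB site present in 4.65%, and for TGGGAA, the core of the RBPJ site present in 21.6%. The 4 sequences below are shown because Tnfsf11 differed most between genotypes, because Flt3l and Tnfsf13b hold an interferon-type match next to a start, and because Csf1 gives an example of an NF-kB-type match. Each is written 5′ to 3′ on the strand of its gene, up to the base before the start, with the match in capitals.
Tnfsf11, chr14:78308044-78308203, minus strand: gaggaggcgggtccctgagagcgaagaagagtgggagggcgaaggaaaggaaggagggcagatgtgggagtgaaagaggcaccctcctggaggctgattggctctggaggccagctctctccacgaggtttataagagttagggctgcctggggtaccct
Flt3l, chr7:45136433-45136592, minus strand: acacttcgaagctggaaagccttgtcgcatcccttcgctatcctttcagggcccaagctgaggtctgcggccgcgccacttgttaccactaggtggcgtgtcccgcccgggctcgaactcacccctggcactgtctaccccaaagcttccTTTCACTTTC
Csf1, chr3:107760470-107760629, minus strand: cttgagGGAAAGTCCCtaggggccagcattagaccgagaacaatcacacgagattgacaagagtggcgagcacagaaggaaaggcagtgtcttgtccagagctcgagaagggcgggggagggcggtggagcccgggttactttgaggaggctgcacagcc
Tnfsf13b, second listed start, chr8:10006603-10006632, plus strand: atcttacaaaaactGAAAGTGAAAtgcgga

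The interferon-type match of Flt3l began 10 bases before the start (-10), and that of Tnfsf13b 16 bases before its second start (-16). The NF-kB-type match of Csf1 began at -154. Kitl held an NF-kB-type match at -152 that overlapped an RBPJ-type match at -154, and Il33 held an RBPJ-type match at -129 of its second start. Tnfsf11 held none of the 3 motifs in its window, which says only that these letters are not there. A match is a description of the letters and not a binding site.

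The libraries held 9891, 8491, 18482 and 13452 barcodes (control 1, Notch2 cKO 1, control 2, Notch2 cKO 2, the order used for values throughout). Median unique molecular identifier (UMI) counts were 2040, 2834, 5787 and 7243, so batch 2 was deeper. Any pair of libraries shared between 21 and 57 barcodes. Cells were sorted into classes by marker genes, none of them a member; between 82.8% and 96.5% of the cells kept were fibroblast-like. T-zone reticular-like cells (Ccl21a, Ccl19, Bst1, Grem1) numbered 4363, 3524, 4564 and 5012. Marginal reticular-like cells (Madcam1, Cxcl13, Enpp2, Hamp2) numbered 216, 219, 1545 and 1243. Medullary-type-like (Inmt, Car3, Cyp2f2, Stc1), adventitial-like (Pi16, Dpp4 and Cd34 among others) and remaining fibroblast-like cells formed 3 further classes, and perivascular-like cells (pericyte and smooth muscle markers) numbered 29, 21, 896 and 584. Near the T-zone threshold, within 20% of it, lay 7.57% to 13.2% of fibroblast-like cells, so the class is a range and not a sharp type. The markers do not separate the classes fully. Madcam1 was higher in T-zone reticular-like than in marginal reticular-like cells of both controls (45.9 against 6.61 and 48.8 against 28.4 CPM), whereas Cxcl13 was at 5037 to 9996 CPM in the marginal class and at 124 to 945 CPM in the T-zone class. Medullary-type-like cells of batch 2 held more marginal marker RNA (4384 and 5662 CPM) than medullary-type marker RNA (3331 and 4422 CPM). In Notch2 cKO 1 these sums were about equal (3869 and 3867 CPM), and in control 1 the marginal sum was lower (2526 against 3660 CPM). The 29 perivascular-like cells of control 1 held T-zone markers at 10896 CPM, above their pericyte (4284 CPM) and smooth muscle (2988 CPM) sums; in the other libraries T-zone markers there summed to 653 to 1671 CPM. Defining leukocyte RNA was near 0 in T-zone reticular-like cells, with Ptprc (CD45) at 0 to 0.401 CPM. Cells with 2 or more leukocyte markers, Ptprc among them, were kept out of the class, so these low values follow in part from the gate.

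All 9 members were tested in each class; levels below are CPM within the class, which removes depth but not capture differences between genes. They are compared across classes within a gene and never between genes. Class differences were tested in edgeR on sums per class and library with a term for the library. The T-zone class was set against the marginal, medullary-type, adventitial-like and perivascular-like classes, and no contrast with the remaining fibroblast-like class was tested.

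By mean level over the libraries, Il7, Il15, Tnfsf13b and Il33 were highest in T-zone reticular-like cells. Tnfsf11 and Kitl were highest in marginal reticular-like cells and Il34 in perivascular-like cells. For Il15 the difference from perivascular-like cells was not called. Csf1 and Flt3l were spread across the fibroblast classes. Between T-zone and marginal reticular-like cells, 5 members were higher and 3 lower in the T-zone class at an adjusted p below 0.05, where 12.5% of all genes tested were higher and 12.4% lower (24.9% in all). The median member differed by 0.43 (log2), beside -0.01 (-0.00844) over all genes.

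**Figure D1:**
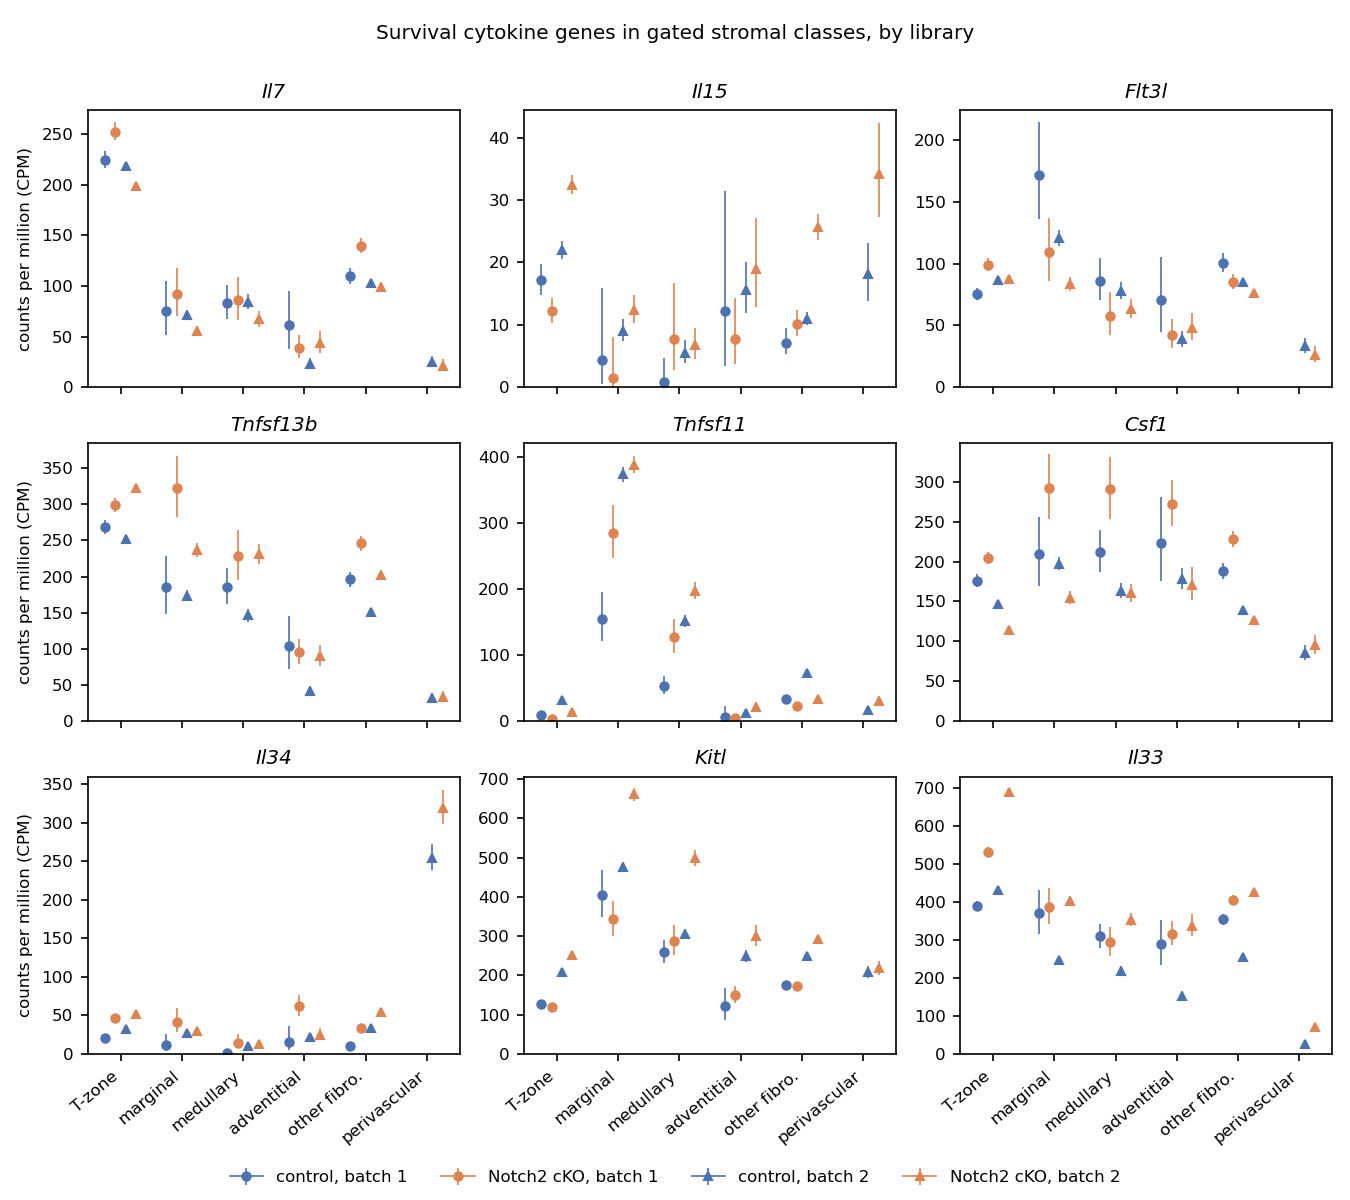
Level of each member (CPM, linear axis from 0, 1 panel per gene) in 6 gated classes, with 1 point per library and its 95% Poisson interval; blue is control, orange Notch2 cKO, circles batch 1 and triangles batch 2, and sums of fewer than 50 cells (perivascular-like, batch 1) are not drawn. Il7 sat between 199 and 252 CPM in T-zone reticular-like cells and at 140 or below in every other point, whereas Tnfsf11 sat between 154 and 388 CPM in marginal reticular-like cells.

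Among the lymphocyte factors, Il7 was at 225, 252, 218 and 199 CPM in T-zone reticular-like cells (mean 223 ± 22.3, SD, n = 4). In marginal reticular-like cells it was at 74.9, 91.8, 71.7 and 55.2 CPM. The 2 ranges did not overlap, and the T-zone class was higher by 1.72 on the log2 scale (SE 0.09, edgeR adjusted p = 8.54e-08). Il7 was also higher in the T-zone class than in medullary-type-like (1.47), adventitial-like (2.69) and perivascular-like cells (3.37), with edgeR adjusted p-values of 1.57e-06, 4.02e-07 and 2.76e-08. The remaining fibroblast-like class followed at 110, 140, 103 and 99.3 CPM, and the contrast with it was not tested. T-zone reticular-like cells made up 30.5% to 50.8% of the fibroblast-like and perivascular-like cells together. They held 61.4% to 77.1% of the Il7 UMIs of those cells.

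The share of cells with an Il7 UMI depended on depth. It was 36.6%, 49.0%, 67.5% and 70.1% of T-zone reticular-like cells as sequenced, and 19.5%, 21.1%, 18.9% and 17% with every cell thinned to 1000 UMIs. In leukocyte-like cells of batch 2, which should lack Il7, it was 5.26% and 3.36% as sequenced (median UMIs 4058.5 and 3483, against 8277 and 10434 in the T-zone class) and 1.29% and 0.855% after thinning. Stromal Il7 detection was therefore above this background in both batch 2 libraries.

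Il15, which supports natural killer cells and memory T cells, was at 17.1, 12.2, 22.0 and 32.4 CPM in the T-zone class. In marginal reticular-like cells it was at 4.41, 1.43, 9.06 and 12.4 CPM, lower in each library (T-zone minus marginal 1.45, SE 0.14, edgeR adjusted p = 1.27e-05). It was higher in the T-zone class than in the medullary-type-like class too (2.12, edgeR adjusted p = 7.70e-05). Against adventitial-like cells the difference was 0.73 (edgeR adjusted p = 0.00506), and it missed the threshold without Notch2 cKO 2 (0.61, adjusted p = 0.0652). Against perivascular-like cells the difference was 0.39 and did not pass (edgeR adjusted p = 0.198), and in Notch2 cKO 2 the perivascular-like class was higher. Follicular dendritic-like cells of batch 2, which were not tested, held more Il15 than the T-zone class of the same libraries. Leukocyte-like cells of batch 2 held 15.6 and 28.7 CPM, close to the T-zone class of the same libraries.

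Tnfsf13b (BAFF) was at 269, 299, 252 and 324 CPM in T-zone reticular-like cells and at 185, 323, 173 and 236 CPM in marginal reticular-like cells. The T-zone class was higher in 3 of 4 libraries, by 0.43 on the log2 scale (SE 0.11, edgeR adjusted p = 0.0127). The gap was wider towards adventitial-like cells, at 104, 95.1, 40.6 and 89.3 CPM (2.04, edgeR adjusted p = 2.49e-06), and towards perivascular-like cells (3.38, edgeR adjusted p = 2.76e-08).

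Tnfsf11 (RANKL) had the opposite distribution. It was at 154, 284, 373 and 388 CPM in marginal reticular-like cells and at 8.38, 2.09, 31.5 and 13.5 CPM in the T-zone class, a difference of -4.56 on the log2 scale (SE 0.36, edgeR adjusted p = 1.96e-06). Medullary-type-like cells lay between, at 52.3, 127, 150 and 197 CPM, and were likewise above the T-zone class (-3.39, edgeR adjusted p = 0.000159). Marginal reticular-like cells made up 2.51% to 11.0% of the fibroblast-like and perivascular-like cells together. They held 15.7% to 60.3% of the Tnfsf11 UMIs of those cells. With cells thinned to 1000 UMIs, a Tnfsf11 UMI was found in 12.3%, 19.8%, 23.8% and 26% of marginal reticular-like cells and in 0.674%, 0.160%, 2.59% and 1.21% of T-zone reticular-like cells. Unthinned shares were 22.2%, 37.4%, 60.3% and 63.9%, and 1.72%, 0.568%, 11.9% and 6.60%. The T-zone shares of batch 2 lie near those of perivascular-like cells (1.45% and 1.99% after thinning) and below those of leukocyte-like cells (4.36% and 4.76%). Those leukocyte-like cells held T cell markers at 1165 and 846 CPM and marginal reticular markers at 2228 and 2288 CPM (37.1 and 41.3 CPM in batch 1), and the part of either in their Tnfsf11 was not tested. Tnfsf11 in the T-zone class was thus low, and how much of it is background cannot be told from these classes.

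The osteoprotegerin gene Tnfrsf11b was higher in the T-zone class than in the marginal and medullary-type classes, where the ligand was higher. It was at 9.01 and 7.39 CPM in the T-zone class of the controls, and no UMI or at most 0.10 CPM was counted in any library of marginal reticular-like cells (T-zone minus marginal 6.44, edgeR adjusted p = 3.27e-05, a fitted value that depends on how zero counts are treated and is no bound). In medullary-type-like cells it had 0 to 4 UMIs in a library (T-zone minus medullary-type 4.03, edgeR adjusted p = 0.000181, with the same limit). It did not pass against adventitial-like (1.19, edgeR adjusted p = 0.0739) or perivascular-like cells (-0.25, edgeR adjusted p = 0.769), and neither did the ligand.

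Among the myeloid factors, Flt3l was at 75.3, 99.1, 87.1 and 87.5 CPM in the T-zone class and at 172, 109, 121 and 83.3 CPM in marginal reticular-like cells. The difference missed the threshold (-0.30, edgeR adjusted p = 0.158) and passed it without Notch2 cKO 2 (-0.48, adjusted p = 0.00501). Adventitial-like cells held 70.5, 42.1, 39.0 and 48.2 CPM, less than the T-zone class in each library (1.04, edgeR adjusted p = 0.000280). Against medullary-type-like cells the value was 0.27 (edgeR adjusted p = 0.168), and it passed the threshold without the first control library (0.43, edgeR adjusted p = 0.0356).

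Csf1, the macrophage colony-stimulating factor, was at 176, 204, 147 and 114 CPM in the T-zone class and 209, 293, 197 and 154 CPM in the marginal class, higher in the latter in 4 of 4 libraries by a small amount (-0.34, SE 0.09, edgeR adjusted p = 0.0107). Medullary-type-like cells were above the T-zone class by a like amount (-0.36, edgeR adjusted p = 0.0116; -0.29, adjusted p = 0.0590, without Notch2 cKO 1). The T-zone class exceeded perivascular-like cells (0.84, edgeR adjusted p = 0.00473), and this call was lost without control 2 (0.74, adjusted p = 0.170).

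Il34, the alternative CSF1 receptor ligand, was the 1 member with its highest level outside the fibroblast classes. Perivascular-like cells held 255 and 320 CPM in batch 2, against 32.0 and 51.9 CPM in the T-zone class of those libraries. In batch 1, with 29 and 21 perivascular-like cells, the level rested on 5 UMIs in each library, 110 CPM (95% Poisson interval 35.7 to 256) and 172 CPM (55.8 to 401), intervals that cover counting error only. The T-zone class was lower by 2.33 on the log2 scale (-2.33, SE 0.24, edgeR adjusted p = 3.48e-07). An Il34 UMI was found in 50.9% and 61.0% of perivascular-like cells of batch 2 and in 3.95% and 4.48% of leukocyte-like cells of nearly the same median depth (3533 and 3963.5 against 4058.5 and 3483 UMIs). Perivascular-like cells made up 0.278% to 5.98% of the fibroblast-like and perivascular-like cells together. They gave 0.495% to 22.0% of the Il34 UMIs of those cells. Within the fibroblast classes, medullary-type-like cells were lowest at 1.66, 14.1, 9.77 and 13 CPM (T-zone minus medullary-type 1.93, edgeR adjusted p = 1.36e-05). The T-zone class was above marginal reticular-like cells by 0.54 (edgeR adjusted p = 0.00700; 0.35, adjusted p = 0.154, without Notch2 cKO 2).

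Kitl, stem cell factor, was at 405, 343, 477 and 660 CPM in the marginal class and 128, 118, 210 and 251 CPM in the T-zone class. The marginal class was higher in each library (-1.35, SE 0.09, edgeR adjusted p = 3.87e-07), and medullary-type-like cells, at 259, 288, 304 and 499 CPM, exceeded the T-zone class as well (-0.95, edgeR adjusted p = 0.000146). For Kitl as for Tnfsf11, the marginal class was above the medullary-type class and that above the remaining fibroblast-like class in 4 of 4 libraries.

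Il33, the alarmin that acts on ST2-bearing lymphoid and myeloid cells, was at 390, 531, 431 and 689 CPM in the T-zone class, the highest of the 6 classes in all 4 libraries. Marginal reticular-like cells held 370, 387, 248 and 403 CPM (0.63, SE 0.10, edgeR adjusted p = 0.00071). Perivascular-like cells of batch 2 held 26.5 and 69.6 CPM (3.73, edgeR adjusted p = 1.24e-07).

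Counts of calls in the other class contrasts were 5 members higher and 3 lower against medullary-type-like cells, 5 higher and 0 lower against adventitial-like cells, and 5 higher and 1 lower against perivascular-like cells. Of all genes, 16.6% were higher and 15.4% lower against medullary-type-like cells (32.0% in all), 18.2% and 14.7% against adventitial-like cells (33.0% in all), and 18.4% and 14.6% against perivascular-like cells (33.0% in all). Of 14 lymphotoxin and NF-kB pathway genes, which act upstream of reticular cytokines, 11 were higher and 0 lower in T-zone reticular-like than in adventitial-like cells. Those with the lowest adjusted p were Birc2 (2.06), Birc3 (1.79), Nfkb2 (1.30) and Map3k14, the NF-kB inducing kinase (1.22). Against marginal reticular-like cells 1 was higher (Tnfrsf1b, 0.64) and 3 were lower (Nfkb1 -0.80, Map3k14 -0.56, Nfkbia -0.27). The list's median was 0.96 against adventitial-like cells and -0.09 against marginal reticular-like cells, beside 0.08 and -0.01 (-0.00844) over all genes.

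The genotype comparison asked what loss of Notch2 in cells with a Ccl19-Cre history did to these genes. Each class was fitted over the 4 libraries with a batch term, which leaves 1 residual degree of freedom, so the estimate of the spread leans on information shared across genes. Where nothing says which mice a pool shares, p-values measure the spread between libraries.

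In T-zone reticular-like cells 2 of the 9 members passed the test: Tnfsf11 fell and Il34 rose. In the same comparison 7.75% of 15464 genes passed, 3.84% higher and 3.91% lower. The median member changed by 0.01, beside 0.02 over all genes. No member passed in any other class.

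**Figure D2:**
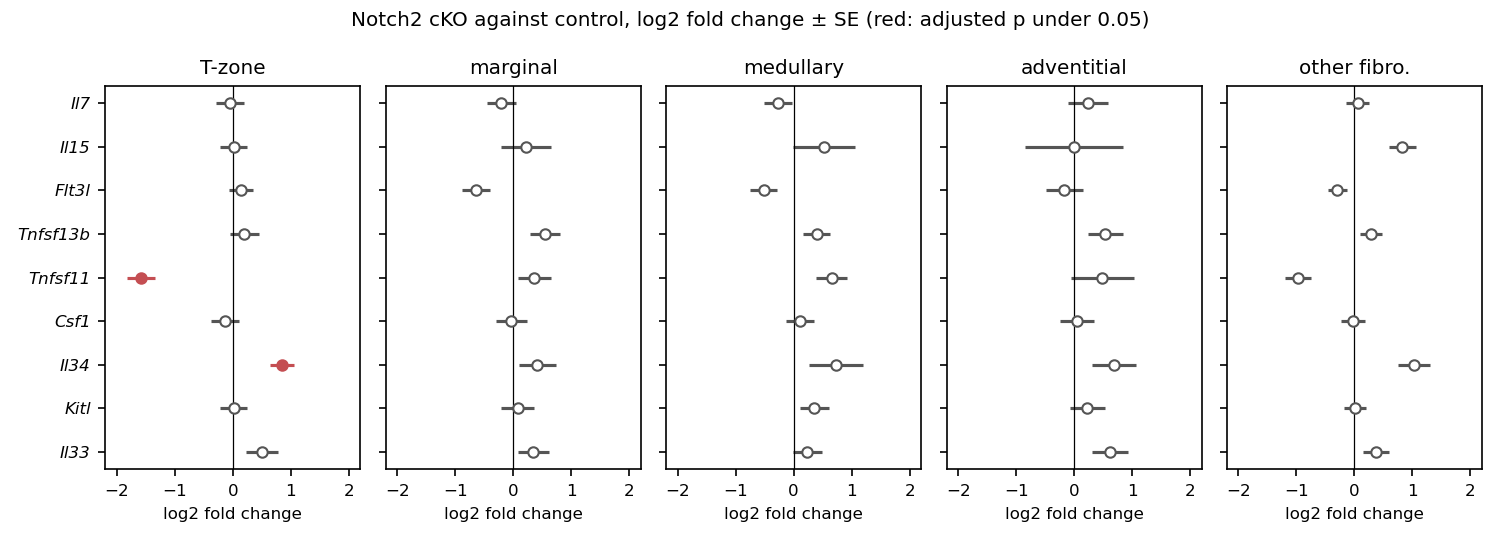
Log2 fold change of Notch2 cKO over control with its SE (horizontal axis) for each member (rows) in 5 fibroblast classes; filled red points have an adjusted p below 0.05 over all genes tested. Only Tnfsf11 (-1.59) and Il34 (0.85) in T-zone reticular-like cells are filled.

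Tnfsf11 in T-zone reticular-like cells was counted as 93 UMIs (8.38 CPM) in control 1 and 26 UMIs (2.09 CPM) in Notch2 cKO 1. In batch 2 it was 1300 UMIs (31.5 CPM) in control 2 and 738 UMIs (13.5 CPM) in Notch2 cKO 2. The Notch2 cKO library was lower in each batch, by log2 ratios of -2.01 and -1.23, but the groups overlapped across batches, since Notch2 cKO 2 exceeded control 1. Control means were 19.9 ± 16.3 CPM and Notch2 cKO means 7.77 ± 8.04 CPM (SD, n = 2). With the batch term the change was -1.59 (SE 0.24, edgeR adjusted p = 6.56e-05). The batches differed by as much as the genotypes: batch 2 exceeded batch 1 by 1.91 (log2) in controls and by 2.69 in Notch2 cKO libraries. As given above, these levels are low, and how much of them is background cannot be told.

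The fall kept its direction and its call in 10 of 10 other settings that kept the batch term, with changes from -1.76 to -1.44 and adjusted p from 5.58e-05 to 0.0180. These include T-zone reticular-like cells with no UMI of Cxcl13, Madcam1 or Hamp2. With the batch term left out the change was -1.45 and no gene was called. With 1 library left out, which cannot be fitted with a batch term, it ranged from -3.27 to -0.28 and was not called. The 4 markers of marginal reticular cells summed to 884 and 1532 CPM in the T-zone class of the controls and 1107 and 2043 CPM in the Notch2 cKO libraries. T cell markers (5 of 5 detected) summed to 6.76 and 6.44 CPM in controls and 1.20 and 2.02 CPM in Notch2 cKO libraries, with Ptprc at 0.401 CPM or less. Ptprc and Cd3e were also used by the gate to remove leukocytes, so their low levels are no independent measure. The T-zone markers of the gate were also lower in each batch, at 24570 and 24441 CPM in controls and 18531 and 22823 CPM in Notch2 cKO libraries. The interferon list was lower in each batch too (2034 and 1924 against 1997 and 1470 CPM). Other lists that fell or rose are given below with Il34. The part of RNA from other cell types, or of the differing make-up of the class, in the fall was not tested.

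Il34 in the same cells was at 21.1 CPM (234 UMIs) in control 1 and 46.8 CPM (583 UMIs) in Notch2 cKO 1. In batch 2 it was at 32.0 CPM (1322 UMIs) and 51.9 CPM (2846 UMIs). Both Notch2 cKO libraries were above both controls, as was the case for 4 of 9 members (Flt3l, Tnfsf13b, Il34 and Il33) and for 18.5% of all genes in this class, while 0 of 9 had both below (10.7% of all genes). Means were 26.6 ± 7.74 and 49.3 ± 3.59 CPM (SD, n = 2), a change of 0.85 (SE 0.21, edgeR adjusted p = 0.00993). The call held in 3 of 10 other settings with the batch term, where the change was 0.78 to 0.92 and the adjusted p 0.00709 to 0.101. It was lost in the rest, among them DESeq2 (adjusted p = 0.0874), a stricter cell filter (0.101) and only the cells that lacked mural markers (0.0600). The smooth muscle markers summed to 283 and 399 CPM in the T-zone class of controls and 146 and 328 CPM in the Notch2 cKO libraries, lower in each batch. Pericyte markers were lower in each batch too, at 1098 and 1107 CPM in controls and 746 and 842 CPM in Notch2 cKO libraries. Other lists moved with Il34 in each batch. Schwann markers (6 of 6 detected) summed to 14.0 and 14.7 CPM in controls and 25.6 and 30.0 CPM in Notch2 cKO libraries. Adventitial markers (8 of 8) summed to 77.0 and 85.4 against 188 and 162 CPM, and follicular dendritic markers (5 of 5) to 24.4 and 21.2 against 74.3 and 37.6 CPM. Dendritic cell markers (5 of 5) summed to 12.3 and 53.4 against 21.0 and 80.0 CPM. The fibroblast, marginal reticular, macrophage, B cell and leukocyte lists rose in each batch as well. Schwann-like cells of batch 2 held Il34 at 85.0 and 154 CPM. The part of these cell types in the rise was not tested.

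**Figure D3:**
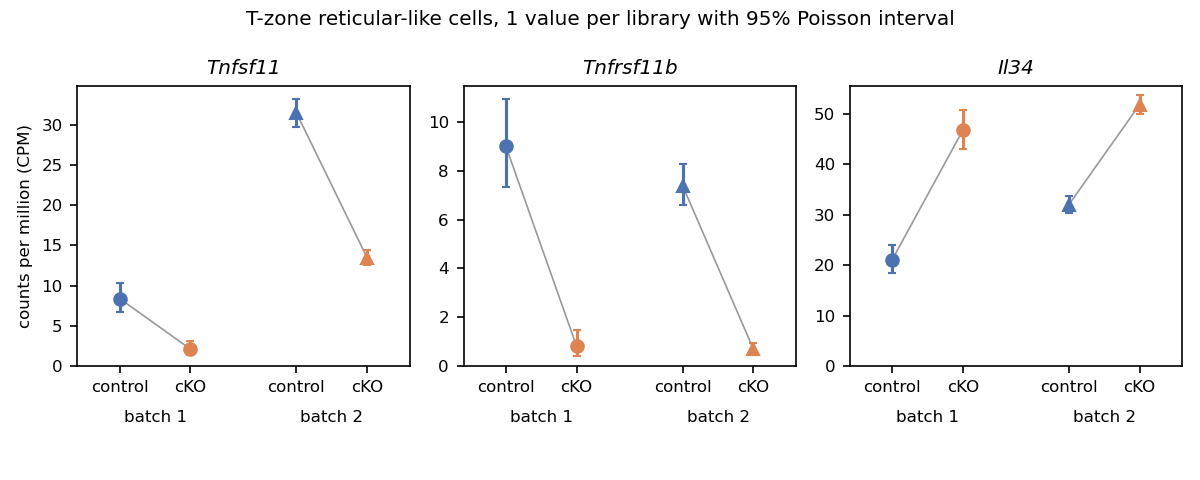
Tnfsf11, its decoy receptor gene Tnfrsf11b and Il34 in T-zone reticular-like cells, in CPM on a linear axis from 0, with 1 point per library, its 95% Poisson interval and a line joining the libraries of a batch. Tnfsf11 and Tnfrsf11b are lower and Il34 higher in the Notch2 cKO library of each batch, and Tnfsf11 also stands higher in batch 2 than in batch 1 for both genotypes.

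The remaining 7 members gave no call in T-zone reticular-like cells. Il7 was at 221 ± 4.73 CPM in controls and 225 ± 38.1 CPM in Notch2 cKO libraries (-0.05, SE 0.24, edgeR adjusted p = 0.971), up in batch 1 and down in batch 2. Il33 was at 411 ± 29.3 and 610 ± 111 CPM, higher in the Notch2 cKO library of each batch (0.50, SE 0.28, edgeR adjusted p = 0.405). Tnfsf13b was at 260 ± 11.8 and 311 ± 17.6 CPM (0.20, SE 0.25, edgeR adjusted p = 0.845). Flt3l (0.14), Csf1 (-0.13), Kitl (0.01) and Il15 (0.01) had smaller estimates with standard errors of 0.21 to 0.24. Il15, Csf1, Kitl and Il7 each moved in opposite directions in the 2 batches.

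In marginal reticular-like cells (1.23% of genes called), Tnfsf11 was at 154 and 373 CPM in controls and 284 and 388 CPM in Notch2 cKO libraries (0.36, SE 0.28, edgeR adjusted p = 1.00). Flt3l was at 172 and 121 CPM in controls and 109 and 83.3 CPM in Notch2 cKO libraries, with no overlap (-0.65, SE 0.24, edgeR adjusted p = 0.304). Tnfsf13b stood at 185 and 173 against 323 and 236 CPM, again without overlap (0.55, SE 0.26, edgeR adjusted p = 0.597). In marginal reticular-like cells 3 members had both Notch2 cKO libraries above both controls and 1 had both below, where 15.8% and 8.63% of all genes did so. In medullary-type-like cells (0.388% of genes called) the estimate was 0.66 for Tnfsf11 (edgeR adjusted p = 0.563) and -0.52 for Flt3l (edgeR adjusted p = 0.657).

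In the remaining fibroblast-like cells (2.36% of genes called), Tnfsf11 was at 32.4 and 72.3 CPM in controls and 22.5 and 32.1 CPM in Notch2 cKO libraries. The change of -0.98 (SE 0.22) had an edgeR adjusted p of 0.0727, and of 0.0406 under a stricter cell filter. Il34 was at 10.3 and 33.4 CPM in controls and 33.9 and 54.0 CPM in Notch2 cKO libraries (1.02, SE 0.27, edgeR adjusted p = 0.119). Il15 was at 7.17 and 11.0 CPM in controls and 10.1 and 25.6 CPM in Notch2 cKO libraries (0.82, SE 0.23, edgeR adjusted p = 0.136). Over all fibroblast-like cells (1.95% of genes called) Il34 was at 15.9 and 29.8 CPM in controls and 41.6 and 47.6 CPM in Notch2 cKO libraries (0.97, edgeR adjusted p = 0.0978). Both Notch2 cKO libraries were above both controls for Il34 in each of the 5 fibroblast classes, and with the main settings only the T-zone class gave a call. In control 1 an Il34 UMI was found in 0.321% of 623 medullary-type-like, 1.85% of 216 marginal reticular-like and 3.52% of 142 adventitial-like cells. Those control values therefore rest on few UMIs. The log2 ratios of Notch2 cKO over control in these 3 classes were 3.09, 1.92 and 2.01 in batch 1, and 0.41, 0.13 and 0.19 in batch 2. Il34 was also called in 2 of 6 other settings in the remaining fibroblast-like cells (library size scaling, adjusted p = 0.0454; no filter on low counts, adjusted p = 0.000844) and in 1 of 7 over all fibroblast-like cells (no filter, adjusted p = 0.00023). Members with both Notch2 cKO libraries above both controls, and with both below, numbered 3 and 1 in medullary-type-like cells (18.1% and 7.41% of all genes), 3 and 1 in the remaining fibroblast-like cells (17.3% and 7.07%), 2 and 0 in adventitial-like cells (14.4% and 8.26%), 3 and 0 over all fibroblast-like cells (15.3% and 8.93%) and 0 and 1 in perivascular-like cells (14.4% and 8.68%). Adventitial-like (0.428% of genes called) and perivascular-like cells (0.0407%) gave no member.

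Whether the genotype effect itself differed between T-zone reticular-like and the other fibroblast-like cells was tested with an interaction term, by which 0.471% of 16571 genes passed. Tnfsf11 had the largest difference of the 9 (-1.43, SE 0.26) and missed the threshold (edgeR adjusted p = 0.0637). Il15 (-0.55, edgeR adjusted p = 0.473) and Flt3l (0.49, edgeR adjusted p = 0.489) did not pass either; with thresholds for the classes 2 times higher, Il15 passed (-0.76, adjusted p = 0.0181). No member's genotype effect was thus called different between the T-zone class and the rest with the main settings. A missing call does not show that the effects were alike.

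Genes around the members were described from 3 lists. Of 19 receptors and decoys, 11 could be tested in T-zone reticular-like cells, and 0 rose and 2 fell, where 3.84% of all genes rose and 3.91% fell (list median 0.33, all genes 0.02). Tnfrsf11b, the RANKL decoy, was at 9.01 and 7.39 CPM in controls and 0.803 and 0.693 CPM in Notch2 cKO libraries (-3.52, SE 0.35, edgeR adjusted p = 1.46e-07). Il2rg, the common gamma chain through which IL-7 and IL-15 signal, was at 23.0 and 21.9 CPM in controls and 11.6 and 9.55 CPM in Notch2 cKO libraries (-1.16, edgeR adjusted p = 0.000835), alongside the lower T cell marker sum given above, whose part in it was not tested. In T-zone reticular-like cells without mural markers the change was -0.54 and the call was lost (edgeR adjusted p = 0.383). Il2rg was higher in perivascular-like than in T-zone reticular-like cells (T-zone minus perivascular -1.50, edgeR adjusted p = 0.000923), and the pericyte markers in the T-zone class summed to 1098 and 1107 CPM in controls and 746 and 842 CPM in Notch2 cKO libraries. The part of perivascular RNA in the fall of Il2rg was not tested.

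Of 22 other haematopoietic cytokines, 19 were tested there, with 1 risen and 3 fallen among those past the test, beside the same 3.84% and 3.91% of all genes (list median -0.05). Tslp, which acts on dendritic cells, was at 12.6 and 13.2 CPM in controls and 2.25 and 2.33 CPM in Notch2 cKO libraries (-2.57, edgeR adjusted p = 4.34e-07). Lif, a cytokine of the IL-6 family, was at 15.9 and 31.6 CPM against 5.54 and 3.23 CPM (-2.56, edgeR adjusted p = 4.78e-06). Il6 was at 59.9 and 247 CPM against 28.7 and 27.0 CPM (-2.22, edgeR adjusted p = 7.76e-05), and its call held in 8 of 10 other settings, being lost with DESeq2 (adjusted p = 0.302) and a stricter cell filter (0.101). Il18 was at 2.88 and 7.12 CPM against 10.6 and 12.5 CPM (1.17, edgeR adjusted p = 0.00923), and held its call in 3 of 10 other settings. None of the 14 NF-kB pathway genes passed edgeR (list median 0.10), with an unadjusted p of 0.0770 or more for each.

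Lif and Tslp also fell in marginal reticular-like cells (-2.85 and -2.08) and in the remaining fibroblast-like cells (-2.64 and -1.80), and Il6 fell in the marginal class (-1.35). In the marginal class the Tslp call held in 6 of 8 other settings (lost with DESeq2 and with a stricter gate) and the Il6 call in 7 of 8 (lost with DESeq2, adjusted p = 0.847). Csf3, the granulocyte colony-stimulating factor, fell in the remaining fibroblast-like cells (-2.96), a call that held in 5 of 6 other settings and was lost with batch 2 thinned (-1.96, adjusted p = 0.157). Over all fibroblast-like cells Tnfrsf11b (-3.17), Lif (-2.50) and Tslp (-2.04) fell. The Lif call there held in 4 of 7 other settings and was lost with library size scaling (adjusted p = 0.105), a stricter cell filter (0.0558) and batch 2 thinned (0.137). In medullary-type-like, adventitial-like and perivascular-like cells no gene of the 3 lists passed.

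T-zone reticular-like cells were also split by the summed level of Cxcl9, Cxcl10, Iigp1, Gbp4 and Gbp2, genes induced by interferon-gamma. At or above 50 UMIs per 10000 lay 404, 343, 420 and 315 cells, 6.28% to 9.73% of the class, and between 156 and 270 cells per library lay within 20% of that level. The split uses no member, and the values below are a description without a test. Median UMIs were 2787, 3764, 8774 and 11831 in the high cells and 2326, 3248, 8221 and 10351 in the low cells, and the median T-zone marker score was 168 to 254 against 176 to 232 per 10000 UMIs.

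Il15 was higher in the interferon-high cells of all 4 libraries. The high cells held 25.9, 24.8, 31.7 and 55.7 CPM, and the low cells 16.1, 10.6, 20.9 and 30.6 CPM, a mean log2 ratio of 0.84 ± 0.27 (SD, n = 4). Of all genes with enough counts 10.4% were higher in all 4 libraries. Il7 was lower in all 4, at 144, 187, 143 and 130 CPM against 234, 260, 226 and 204 CPM (-0.62 ± 0.10). Tnfsf13b (-0.36 ± 0.20), Flt3l (-0.27 ± 0.13) and Kitl (-0.22 ± 0.12) were likewise lower in all 4, as were 19.0% of all genes. Il33, Csf1, Il34 and Tnfsf11 had no common direction.

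**Figure D4:**
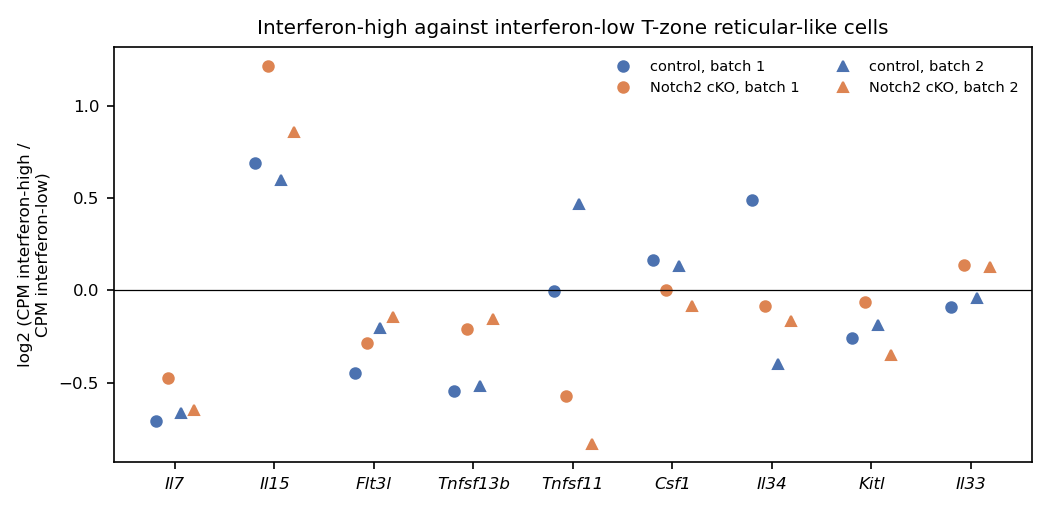
Log2 ratio of CPM in interferon-high over interferon-low T-zone reticular-like cells (vertical axis) for each member, with 1 point per library; blue is control, orange Notch2 cKO, circles batch 1 and triangles batch 2. The 4 points of Il15 lie between 0.60 and 1.22 and those of Il7 between -0.71 and -0.48, both apart from 0.

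Genes with the pattern most like each member were ranked by Pearson correlation of log2(CPM + 1) over 29 sums of class and library with at least 50 cells. The sums share libraries, depth and batch, so the values are descriptions. Leukocyte-like and Schwann-like sums are among them, so a high value need not reflect a pattern among the fibroblast and perivascular classes. Il7 was most like Hpgd (0.92), which breaks down prostaglandins, Tnfsf13b (0.91) and Grem1 (0.91), a gate marker of the T-zone class. Tnfsf13b was most like Tgfbi (0.94), the chemokine gene Cxcl12 (0.94) and Grem1 (0.94), and Flt3l was like Tnfsf13b (0.91) and Ugcg (0.91). Il33 followed Cpxm1 (0.96), Tgfbi (0.95) and Npc2 (0.93).

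Tnfsf11 was most like Timd4 (0.85), Stc1 (0.84), a gate marker of the medullary-type class, and Rgs17 (0.84). Il34 was most like Arhgap5 (0.83), Itgb1 (0.81) and Sorbs2 (0.79), the last found in contractile cells. Csf1 was most like Scara3 (0.92), Ildr2 (0.92) and C1s1 (0.91). Kitl was like Hnrnpll (0.88) and Smad6 (0.79), and Il15 had the weakest neighbours, Tbcd (0.80), Zbtb7c (0.76) and Klf12 (0.76).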

How the data were processed

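UMI counts per gene and cell were deposited as filtered 10x 3′ matrices. Per the file headers, Cell Ranger 5.0.1 made the batch 1 counts and 7.1.0 those of batch 2. Only 5.0.1, with mm10, appears in the submitters' processing notes, and the intron setting was not given in the sources used here. A barcode was kept from 500 genes and 1000 UMIs upward if mitochondrial genes gave no more than 10% of its UMIs, and was then classed by marker genes. Cells with markers of more than 1 lineage (0.442% to 3.24%) were removed as likely doublets, and no doublet caller was run. Counts were summed per class and library and tested with edgeR 4.0.16 (R 4.3.3; quasi-likelihood, TMM, filterByExpr, Benjamini-Hochberg over all genes), with batch or library as a term; DESeq2 1.42.0 was an alternative. The code was tested on counts simulated from these sums. There the T-zone genotype fit called 45% of true log2 changes of 1 and 95% of those of 2. The interaction fit called 13% and 66%, so a missing call does not show that there is no difference. Batch comes from the labels' replicate numbers, and same-batch deviations correlated at 0.833 over all fibroblast-like cells and 0.825 in T-zone reticular-like cells. Named genes were the 9 members, the 3 genes most like each (some are not reported here), and up to 4 called genes per direction of each pathway list. Members and lists were chosen with earlier results of these data known. The T-zone against medullary-type contrast, the genotype fits in medullary-type-like and remaining fibroblast-like cells, and the fits without marginal or mural markers were added after the data were seen.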

Additional observations from a re-analysis of the deposited data

Results flagged for a closer look

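Flt3l and Tnfsf11 had genotype ratios of opposite sign in T-zone reticular-like cells and in some other fibroblast classes, in both batches. For Flt3l the log2 ratio of Notch2 cKO over control was 0.40 and 0.01 in T-zone reticular-like cells (batch 1, batch 2), against -0.66 and -0.53 in marginal reticular-like cells, -0.58 and -0.30 in medullary-type-like cells and -0.24 and -0.16 in the remaining fibroblast-like cells. For Tnfsf11 it was -2.01 and -1.23 in T-zone reticular-like cells, against 0.88 and 0.056 in marginal reticular-like cells and 1.28 and 0.39 in medullary-type-like cells. In the remaining fibroblast-like cells Tnfsf11 had the same sign as in the T-zone class (-0.53 and -1.17). In adventitial-like cells the sign differed between the batches for both genes. The Flt3l ratio of 0.01 in T-zone reticular-like cells of batch 2 is too small to give a direction. The difference for each pair of classes was not tested. The test of T-zone reticular-like against all other fibroblast-like cells gave an edgeR adjusted p of 0.0637 for Tnfsf11 and 0.489 for Flt3l.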

How the results depend on the processing

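Without the replicate block (no batch term), 0 genes were called for genotype in all fibroblast-like, T-zone, marginal, medullary-type, adventitial-like and remaining fibroblast-like cells, so the calls for Tnfsf11 (-1.45) and Il34 (0.83) in the T-zone class depend on it. Class contrasts without the block gave 364 genes against marginal, 2004 against adventitial-like, 1806 against perivascular-like and 1004 against medullary-type-like cells, in place of 3678, 4615, 4649 and 4582. In T-zone reticular-like cells, 1199 genes became 598 with DESeq2, 634 with library size scaling, 511 with a stricter cell filter, 738 without the top 5% of UMIs, 775 with batch 2 thinned, 696 with a gate lacking Ccl19, 508 without cells bearing marginal markers and 547 without cells bearing mural markers. All fibroblast-like cells (342) gave 150 with library size scaling, 1060 with no filter, 110 thinned and 185 outside the T-zone gate. Marginal cells (156) gave 21 with DESeq2, 239 with no filter and 95 with a stricter gate. Medullary-type-like cells (44) gave 16, 170 and 20 in those settings, 90 with library size scaling and 29 with a stricter cell filter. Adventitial-like cells (43) gave 1 with DESeq2, 5 without the top UMIs, and 0 thinned or with a stricter gate. Remaining fibroblast-like cells (355) gave 1000 with no filter. Perivascular-like cells (4) gave 0 with DESeq2, a stricter cell filter or gate, and 2 with library size scaling or no filter. The interaction (78) gave 30 with library size scaling and 545 with a stricter gate. Leaving out 1 library, which excludes a batch term, gave 0 to 14 genes in all fibroblast-like, 0 to 2 in T-zone, 0 to 19 in marginal, 0 in medullary-type, adventitial-like and remaining fibroblast-like, and 0 to 10 in perivascular-like cells; T-zone against perivascular-like gave 2759 to 4775. The causes were not tested. In the genotype fits with 1 library left out, fewer samples and the lost batch term cannot be told apart.

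Members whose direction turned were uncalled. In T-zone cells Il7 became 0.016 with library size scaling, 0.014 with the stricter cell filter and 0.084 with the stricter gate. Il15 became -0.014 with DESeq2, -0.019 with the stricter cell filter, -0.041 thinned, -0.21 with the stricter gate and -0.0047 with the gate lacking Ccl19. Kitl became -0.00999 without the top UMIs, -0.015 thinned, -0.046 with the stricter gate, -0.12 without marginal and -0.039 without mural markers, and Flt3l -0.0041 without marginal markers. Il7 over all fibroblast-like cells became -0.024 outside the T-zone gate and Csf1 0.026 without the block. Tnfsf11 against perivascular-like cells became -0.29 without the block and -0.10 with library size scaling. Ranges with 1 library left out were, over all fibroblast-like cells, Il7 -0.19 to 0.30, Il15 -0.35 to 0.86, Flt3l -0.21 to 0.057, Tnfsf11 -1.37 to 0.78, Csf1 -0.56 to 0.41 and Kitl -0.45 to 0.48; in T-zone cells, Il7 -0.29 to 0.17, Il15 -0.70 to 0.60, Flt3l -0.021 to 0.27, Csf1 -0.63 to 0.32, Kitl -0.53 to 0.44, Tnfsf11 -3.27 to -0.28 and Il34 0.58 to 1.09; and elsewhere Tnfsf11 -0.23 to 1.05 (marginal), -1.15 to 0.93 (adventitial-like), -0.44 to 0.97 (T-zone against adventitial-like) and -0.88 to 1.20 (T-zone against perivascular-like), and Il34 -0.38 to 1.29 (perivascular-like). Against marginal cells, without the block, the calls for Il15 (1.40), Tnfsf13b (0.39), Csf1 (-0.32), Il34 (0.50) and Il33 (0.61) were lost, against adventitial-like cells that for Il15 (0.66), and against medullary-type-like cells those for Tnfsf13b (0.51), Csf1 (-0.39), Kitl (-0.95) and Il33 (0.77). The marginal gate without Madcam1 gave 222 genes and no call for Flt3l, Tnfsf13b, Tnfsf11 or Il34. Perivascular-like cells of batch 1, 29 and 21 in number, gave 0 to 8 UMIs per member and library.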

Other observations

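Follicular dendritic-like cells were numerous enough only in batch 2, with 164 and 100 cells in control 2 and Notch2 cKO 2, and were not tested. They held Kitl at 284 and 359 CPM, Tnfsf11 at 106 and 83.5 CPM, Il15 at 29.3 and 40.8 CPM, Il33 at 164 and 303 CPM and Tnfsf13b at 108 and 147 CPM. Schwann-like cells, 78 and 71 in the same libraries, held Il34 at 85 and 154 CPM, between the T-zone and perivascular-like levels, and Kitl at 223 and 219 CPM. The receptors of the lymphoid factors were found on the few leukocyte-like cells left after the sort: Il7r was at 438 and 359 CPM and Il2rb at 116 and 75.6 CPM there in batch 2.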
